A study of Arabidopsis thaliana with 8 samples.

Results

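The genes described here are the 10 morning-phased clock genes CCA1, LHY, RVE1, RVE4, RVE6, RVE8, LNK1, LNK2, PRR9 and PRR7 of Arabidopsis thaliana. They were listed by locus, as members of the circadian clock whose transcripts peak between dawn and midday. They are 10 of 32833 loci in the count tables, and all 10 passed the filter on low counts. The plant clock is a loop of transcription factors that repress or activate each other in turn through the day. CCA1 and LHY, a pair of MYB-like repressors made around dawn, hold down the evening genes, among them TOC1. The pseudo-response regulators PRR9 and PRR7 follow during the day and repress CCA1 and LHY. RVE4, RVE6 and RVE8 have the same type of MYB-like domain but activate evening genes, with LNK1 and LNK2 as coactivators that bring no DNA-binding domain of their own. RVE1 is a related MYB-like factor better known for carrying clock signals to auxin and growth.

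The samples were floral stems of accession Columbia-0 (Col-0), grown under a 16 h day, in 4 groups of 2 libraries each: msh1 TRAP, WT TRAP, msh1 Total and WT Total. MSH1 encodes a MutS homologue of plastids and mitochondria, WT is wild type, and the labels name neither the msh1 allele nor the number of plants behind a library. TRAP, translating ribosome affinity purification, recovers mRNA bound to ribosomes that hold a tagged ribosomal protein. The tag was FLAG::RPL18 driven by the MSH1 promoter, so a TRAP library is meant to hold ribosome-bound mRNA of the cells that use this promoter, and a Total library RNA of the stem as a whole. Replicates are biological per the labels, which leave unsaid whether the plants of the Total libraries carried the transgene. They give no hour of harvest, so a difference in harvest time between msh1 and WT plants and a difference in genotype cannot be told apart for any gene described here, nor can fewer cells of a type and less RNA per cell. A library held 7568728 to 13611280 gene counts, so that 3 counts, taken as the floor, stood for 0.22 to 0.396 CPM (counts scaled to a common library size by the TMM method; the floor covers counting error only). The MSH1 transcript stood at 22.5 to 36.3 CPM in the 4 libraries labelled msh1 and at 9.27 to 14 CPM in the 4 WT libraries; with the allele not named, this level does not check the label, and msh1 is used here as the label gives it.

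Most of the promoters of these genes hold the same short sequence. The G-box, CACGTG, which reads the same on both strands and is bound by bHLH and bZIP factors, lay between 250 bases before and 50 bases after the annotated gene start in 8 of the 10 genes, against 7.68% of 27443 nuclear protein-coding genes. In the bases before the start alone it was present in 5 of the 10, against 6.49%. It is not particular to the 10, since 4 of 6 other RVE and LNK genes listed held it in either window. In either window 2 of 12 afternoon and evening clock genes and 2 of 8 morning outputs held it. Of 6 evening outputs 1 did, inside the transcribed region. The 9 matches in the 10 genes are shown with up to 10 bases on either side, because they are the sequence most of the 10 genes hold in common. They are written 5′ to 3′ along the gene's strand from the TAIR10.1 genome with RefSeq gene starts, with the G-box in capitals.
CCA1, chr2:19245388-19245413, plus strand: gtgtatcagaCACGTGtcgacaaact
LHY, chr1:37936-37961, minus strand: acaatatcacCACGTGtcgatctgcg
RVE1, chr5:5693088-5693113, minus strand: gaaagagcgaCACGTGgcaaagatgg
RVE8, chr3:2946240-2946265, plus strand: tacaagtctaCACGTGcttcaagctt
LNK1, chr5:25676810-25676835, minus strand: atttagttgcCACGTGttgatatcat
LNK2, chr3:20179031-20179056, minus strand: actcgtttggCACGTGaccatttcat
PRR9, chr2:19232357-19232378, plus strand: gaaaccCACGTGtcatccacat
PRR9, chr2:19232425-19232450, plus strand: aggttaatgaCACGTGttaaggtgga
PRR7, chr5:642216-642241, minus strand: cccaccattaCACGTGtcagttcaaa

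Counted from the gene start, the G-box began at position -193 in CCA1, -80 in LHY, -111 in RVE1 and -201 in PRR7. PRR9 held a pair of them, at -244 and -172, while that of LNK1 began at -2 and those of RVE8 and LNK2 lay inside the transcribed region, at 12 and 25. RVE4 and RVE6 had no CACGTG in this window. After these sequences had been read, the longer form CACGTGTC was also searched on both strands, and it was present in 5 of the 10 genes (CCA1, LHY, RVE1, PRR9 and PRR7), against 2.45% of all promoters of that length. Since the form was picked from these same sequences, its share among them is no separate support. Of the 6 other RVE and LNK genes, 2 held it (LNK3 and RVE2). The evening element AAAATATCT, the site through which CCA1, LHY and the RVE activators bind evening genes, was found in 1 of the 10 (PRR9, inside the transcribed region), against 2.82%. It was present in 5 of 12 afternoon and evening clock genes and in 6 of 6 evening output genes. Those of COR28 and JMJD5 lay inside the transcribed region. In the bases before the start alone it was present in 0 of the 10, 5 of 12 and 4 of 6, against 2.36%. The CCA1-binding site AAAAATCT was found in RVE6 alone (7.88% of all promoters) and the LUX binding site GATTCG in PRR9 alone (9.58%). The TCP site GGNCCCAC, the form to which the CCA1 repressor CHE is known to bind, was found in CCA1 alone (1.32%). All of these searches covered both strands, no match is shown to be a site in use, and genes are not independent samples of a genome.

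The CCA1 and PRR9 promoters are printed whole, since these are the genes with the largest fitted differences between genotypes among the 10. They lie on chromosome 2, with 10411 bases and 3 annotated loci between the 2 genes. Capitals mark the G-boxes with their TC or GA flank in both, the TCP site in CCA1 and the LUX binding site in PRR9; each sequence holds the 250 bases before the gene start.
CCA1, chr2:19245341-19245590, plus strand: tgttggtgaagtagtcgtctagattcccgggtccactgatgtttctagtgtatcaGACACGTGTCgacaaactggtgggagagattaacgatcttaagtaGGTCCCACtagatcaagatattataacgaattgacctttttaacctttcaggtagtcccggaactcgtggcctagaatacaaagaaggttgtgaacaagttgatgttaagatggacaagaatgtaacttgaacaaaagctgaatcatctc
PRR9, chr2:19232357-19232606, plus strand: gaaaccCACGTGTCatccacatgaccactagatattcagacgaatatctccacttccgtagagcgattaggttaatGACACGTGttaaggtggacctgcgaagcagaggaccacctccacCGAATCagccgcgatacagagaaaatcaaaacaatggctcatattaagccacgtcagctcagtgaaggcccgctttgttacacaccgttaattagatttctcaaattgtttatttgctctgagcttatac

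**Figure D1:**
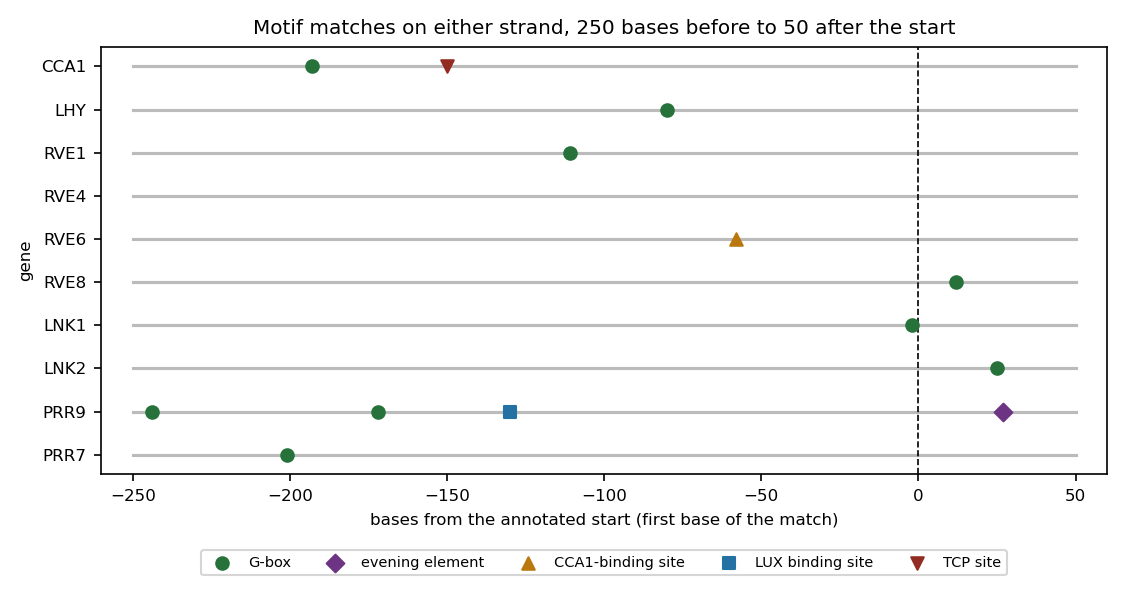
Position of motif matches on either strand in the 10 promoters. The x axis gives bases from the annotated start (0, dashed), the y axis the genes, and symbols the motifs; G-boxes are present in 8 of the 10 rows and the evening element in PRR9 alone.

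Whether msh1 stems differ from WT stems in these genes was asked in each fraction. In TRAP, 6 of the 10 genes were lower and 1 was higher in msh1 at an edgeR adjusted p under 0.05, where 41.6% of the 21202 genes tested passed, 20.8% in each direction. In Total, 6 of the 10 were lower and 0 higher, where 3.89% of genes passed, 3.07% as lower and 0.821% as higher. The median log2 fold change of the 10 was -0.79 in TRAP and -1.20 in Total, against -0.02 and 0.00 over all genes tested. CCA1, LHY, LNK1, LNK2 and PRR9 were lower in both fractions, 5 of the 10 against 2.36% of all genes. With a trend over transcript length removed, LHY, LNK1 and LNK2 lost their TRAP calls, which left 2, CCA1 and PRR9. All 4 msh1 libraries lay below all 4 WT libraries for these 5 genes and RVE8, which makes 6 of the 10 against 10.9% of all genes, and for 0 of the 10 did they lie above, against 9.93%. The 10 genes were chosen with earlier results of these data known, so these shares are not an independent comparison with all genes. The 2 fractions of a genotype are separate libraries, and the fits share 1 estimate of the spread. Whether the fractions came from the same plants was not tested. With 4 of the 8 libraries carrying each genotype, each p-value measures the spread between 2 libraries a group, pooled over the 4 groups.

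**Figure D2:**
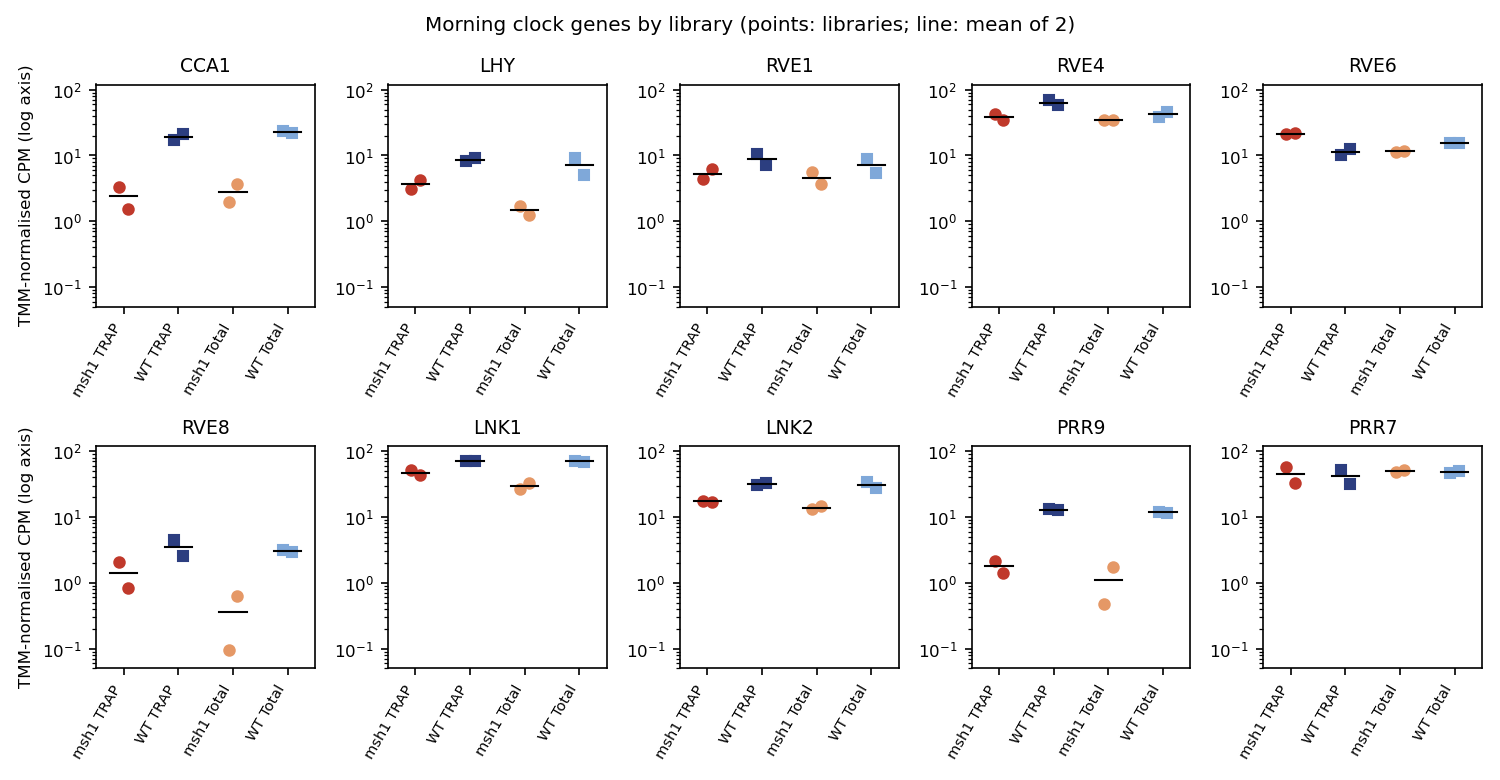
Levels of the 10 morning clock genes in every library. Each panel is a gene, the y axis is TMM-normalised CPM on a log axis, points are libraries and lines the mean of 2; CCA1 and PRR9 are at 3.71 CPM or less in all msh1 libraries and at 11.6 CPM or more in all WT libraries, while PRR7 overlaps throughout.

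CCA1 and LHY, the dawn repressors, were lower in msh1. CCA1 (AT2G46830, chr2:19245591-19248915, plus strand, TAIR10.1) stood at 3.31 and 1.53 CPM for msh1 TRAP, 17.4 and 21.3 for WT TRAP, 1.96 and 3.71 for msh1 Total and 23.4 and 22.3 for WT Total. The genotypes did not overlap, and the msh1 values rest on 13 to 47 counts a library. Here and below, ± gives an approximate SE worked back from the edgeR test. It is the size of the log2 fold change over the square root of the F statistic. Expressed as log2 fold change of msh1 over WT, CCA1 stood at -3.01 ± 0.33 in TRAP (adjusted p = 5.58e-05, edgeR) and at -2.99 ± 0.30 in Total (adjusted p = 0.000226), so that it was 8.07-fold and 7.92-fold lower in msh1. The difference between these effects was -0.03 ± 0.45 (interaction, adjusted p = 0.976).

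LHY (AT1G01060, chr1:33365-37871, minus strand) was at 3.06 and 4.24 CPM for msh1 TRAP, 8.34 and 9.02 for WT TRAP, 1.68 and 1.26 for msh1 Total and 9.27 and 5.05 for WT Total. Every msh1 library again lay below every WT library, with msh1 Total the lowest group. LHY was lower in msh1 with a log2 fold change of -1.24 ± 0.34 in TRAP (adjusted p = 0.0106, edgeR) and of -2.27 ± 0.36 in Total (adjusted p = 0.00318), and its level in msh1 TRAP exceeded that of msh1 Total by 1.32 ± 0.40 (adjusted p = 0.0299). The TRAP call was lost without msh1 TRAP 1 (-0.97, adjusted p = 0.0712), without WT TRAP 2 (-1.16, adjusted p = 0.0704) and with a trend over transcript length removed (-0.73, adjusted p = 0.135). The fraction call was lost without msh1 TRAP 2 (1.05, adjusted p = 0.182), msh1 Total 1 (1.53, adjusted p = 0.0715) or msh1 Total 2 (1.12, adjusted p = 0.175), and in a fit of the 4 libraries compared (1.31, adjusted p = 0.0543).

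Per kilobase of annotated exon, CCA1 exceeded LHY in 7 of the 8 libraries. The CCA1 to LHY ratio was 1.36 and 0.454 for msh1 TRAP, 2.63 and 2.97 for WT TRAP, 1.47 and 3.69 for msh1 Total and 3.18 and 5.56 for WT Total. TOC1, the evening repressor that CCA1 and LHY hold down, ranged less than either between groups. It stood at 203.3 and 213.0 CPM for msh1 TRAP, 200.9 and 173.2 for WT TRAP, 197.5 and 175.7 for msh1 Total and 153.6 and 162.0 for WT Total, with a log2 fold change of 0.15 ± 0.15 in TRAP (adjusted p = 0.436, edgeR) and 0.24 ± 0.15 in Total (adjusted p = 0.473). Set per kilobase against the sum of CCA1 and LHY, TOC1 was 34.3 and 42.1 times as high for msh1 TRAP, 8.09 and 5.90 for WT TRAP, 58.1 and 36.1 for msh1 Total and 4.83 and 5.96 for WT Total. The ratio in every msh1 library was above that in every WT library, which restates the CCA1 and LHY levels above and is not a separate result.

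Of the daytime repressors of CCA1 and LHY, PRR9 was lower in msh1, and for PRR7 neither fraction passed the test. PRR9 (AT2G46790, chr2:19232607-19235179, plus strand) was at 2.17 and 1.41 CPM for msh1 TRAP, 13.1 and 12.7 for WT TRAP, 0.467 and 1.74 for msh1 Total and 11.9 and 11.6 for WT Total. The 4 WT libraries were close together and far above the 4 msh1 libraries, of which msh1 Total 1 held 5 counts and msh1 Total 2 held 22. The log2 fold change of PRR9 was -2.85 ± 0.37 in TRAP (adjusted p = 0.000139, edgeR, 7.19-fold lower) and -3.35 ± 0.37 in Total (adjusted p = 0.000341, 10.2-fold lower). The Total value was -2.75 without msh1 Total 1 and -4.61 without msh1 Total 2, so its size depends on those libraries.

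PRR7 (AT5G02810, chr5:637681-642030, minus strand) was at 57.3 and 32.6 CPM for msh1 TRAP, 52.6 and 31.8 for WT TRAP, 49.0 and 51.2 for msh1 Total and 46.9 and 50 for WT Total. The genotypes overlapped in TRAP, where the replicates of each genotype were 1.76-fold and 1.65-fold apart. Its log2 fold change of msh1 over WT was 0.10 ± 0.26 in TRAP (adjusted p = 0.796, edgeR) and 0.05 ± 0.25 in Total (adjusted p = 0.957), a result that does not show the levels to be equal. The PRR7 to PRR9 ratio per kilobase was 17.5 and 15.3 for msh1 TRAP, 2.66 and 1.66 for WT TRAP, 69.5 and 19.5 for msh1 Total and 2.61 and 2.85 for WT Total.

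LNK1 and LNK2, the coactivators of the RVE activators, were lower in msh1 in both fractions. LNK1 (AT5G64170, chr5:25672466-25676823, minus strand) stood at 51.8 and 43.0 CPM for msh1 TRAP, 72.0 and 71.9 for WT TRAP, 26.3 and 32.9 for msh1 Total and 72.0 and 69.7 for WT Total. The 4 WT libraries were near 70 CPM whichever the fraction, whereas msh1 TRAP lay above msh1 Total. LNK1 was lower in msh1 with a log2 fold change of -0.60 ± 0.16 in TRAP (adjusted p = 0.00889, edgeR) and -1.26 ± 0.16 in Total (adjusted p = 0.00075), and in msh1 its TRAP level exceeded its Total level by 0.68 ± 0.16 (adjusted p = 0.00973). The interaction of 0.65 ± 0.22 did not pass (adjusted p = 0.0654), but did without msh1 TRAP 2 (0.73, adjusted p = 0.0396) and with the length trend removed (0.93, adjusted p = 0.0184). That correction also ended the TRAP call (-0.28, adjusted p = 0.152), and the fraction call was lost without msh1 Total 1 (0.53, adjusted p = 0.114).

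LNK2 (AT3G54500, chr3:20175370-20179070, minus strand) was at 17.8 and 17.0 CPM for msh1 TRAP, 30.7 and 32.3 for WT TRAP, 13.1 and 14.7 for msh1 Total and 34.6 and 27.2 for WT Total. Neither fraction showed any overlap between genotypes. LNK2 was lower in msh1 with a log2 fold change of -0.86 ± 0.17 in TRAP (adjusted p = 0.00196, edgeR) and -1.14 ± 0.17 in Total (adjusted p = 0.00211). The TRAP call was lost with the length trend removed (-0.46, adjusted p = 0.0516), and the Total call without msh1 Total 1 (-1.06, adjusted p = 0.0533). The libraries do not mark strand, and LNK1 shares 245 exon bases with AT5G64160 on the other strand, LNK2 shares 93 with RPB5E and 44 with a non-coding RNA, and RVE1 shares 225 with AT5G17305, so a small share of their counts is uncertain.

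Among the MYB-like activators, RVE6 was higher in msh1 in TRAP, RVE4 was lower there, and RVE8 was lower in Total. RVE6 (AT5G52660, chr5:21359001-21362273, minus strand) was at 21.1 and 21.9 CPM for msh1 TRAP, 10 and 12.6 for WT TRAP, 11.4 and 11.5 for msh1 Total and 15.7 and 15.4 for WT Total. The msh1 TRAP libraries were the highest of the 8, and in Total the order of the genotypes was the opposite. RVE6 was higher in msh1 in TRAP with a log2 fold change of 0.92 ± 0.18 (adjusted p = 0.00158, edgeR), while in Total the value was -0.44 ± 0.17 (adjusted p = 0.216). In msh1 it was also higher in TRAP than in Total, by 0.91 ± 0.18 (adjusted p = 0.00334). The test of the difference between the genotype effects gave 1.36 ± 0.25 (interaction, adjusted p = 0.00566), and this was the 1 call among the 10 genes, where 15.6% of genes passed, 9.01% with a positive and 6.61% with a negative value. It lay between 1.21 and 1.54 with each of the 8 libraries left out in turn.

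RVE4 (AT5G02840, chr5:648648-651979, plus strand) was the most abundant of the 10 per kilobase in 3 of the 4 groups. It stood at 42.4 and 34.5 CPM for msh1 TRAP, 68.8 and 58.3 for WT TRAP, 35.2 and 35.0 for msh1 Total and 38.9 and 46.5 for WT Total. The WT TRAP libraries were above all others. RVE4 was lower in msh1 in TRAP with a log2 fold change of -0.72 ± 0.16 (adjusted p = 0.00397, edgeR), and the Total value was -0.28 ± 0.16 (adjusted p = 0.425). The interaction of -0.44 ± 0.23 did not pass (adjusted p = 0.217), so these effects are not shown to differ. RVE4 lies 6617 bases from PRR7, for which neither genotype contrast passed.

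RVE8 (AT3G09600, chr3:2946239-2949017, plus strand) was the least abundant of the 10 per kilobase in every group. It was at 2.04 and 0.824 CPM for msh1 TRAP, 4.49 and 2.53 for WT TRAP, 0.0933 and 0.631 for msh1 Total and 3.2 and 2.97 for WT Total. The 2 msh1 Total libraries held 1 and 8 counts, whose exact Poisson 95% intervals reach from 0.00236 to 0.52 CPM and from 0.272 to 1.24 CPM. RVE8 was lower in msh1 in Total with a log2 fold change of -2.98 ± 0.62 (adjusted p = 0.0181, edgeR), and in TRAP the value was -1.28 ± 0.55 (adjusted p = 0.077). The Total call was lost without msh1 Total 1 (-2.26, adjusted p = 0.206), WT Total 1 (-2.93, adjusted p = 0.0876) or WT Total 2 (-3.03, adjusted p = 0.064), and the value was -4.87 without msh1 Total 2. The TRAP value passed without msh1 TRAP 1 (-1.99, adjusted p = 0.0436) and with no filter on low counts (-1.28, adjusted p = 0.0198).

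As a share of RVE4, RVE6 and RVE8 together, each per kilobase, RVE6 made up 37.8 and 44.2% for msh1 TRAP, 14.9 and 20.9% for WT TRAP, 29.1 and 29.2% for msh1 Total and 32.3 and 28.5% for WT Total. The TRAP groups did not overlap in this share, and the Total groups did. RVE1 (AT5G17300, chr5:5690225-5692992, minus strand), the factor of clock output, was at 4.46 and 6.12 CPM for msh1 TRAP, 10.5 and 7.19 for WT TRAP, 5.51 and 3.71 for msh1 Total and 8.76 and 5.46 for WT Total. The genotypes overlapped by a small margin in Total. Its log2 fold changes of -0.73 ± 0.33 in TRAP (adjusted p = 0.0933, edgeR) and -0.63 ± 0.32 in Total (adjusted p = 0.353) did not pass, except that of TRAP with no filter on low counts (-0.72, adjusted p = 0.0356).

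**Figure D3:**
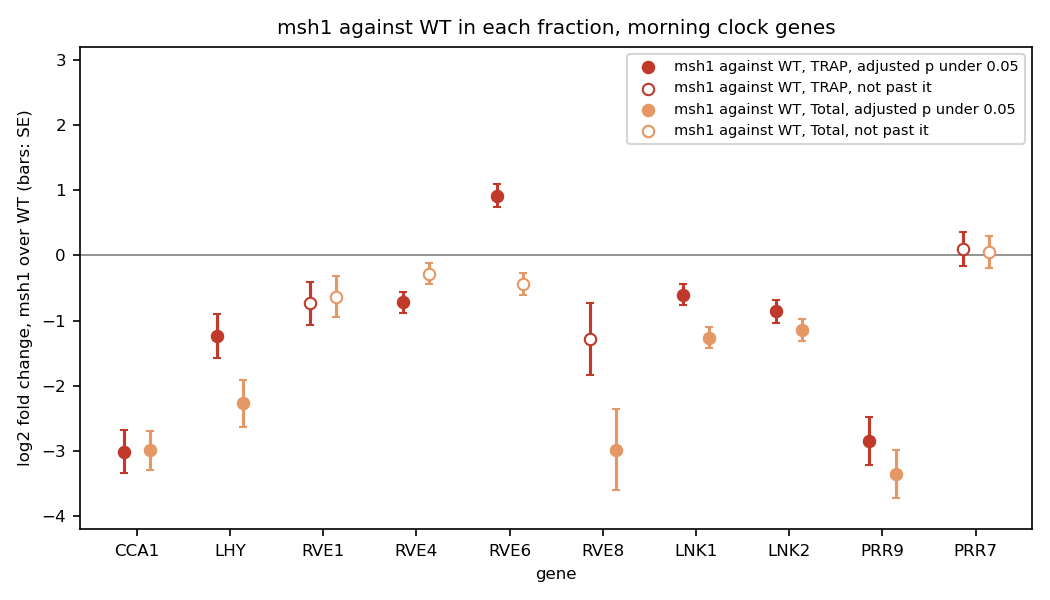
Log2 fold change of msh1 over WT for the 10 genes, TRAP left of Total, with bars for the approximate SE worked back from the F statistic. Filled points passed an edgeR adjusted p under 0.05. CCA1 and PRR9 lie near -3 in both fractions, RVE6 is the 1 gene above 0 with a filled point, and PRR7 lies near 0.

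TRAP was also set against Total within each genotype. Those contrasts use the same msh1 and WT libraries as the contrasts above, so they are given side by side and not as separate support. In msh1, LHY, RVE6 and LNK1 were higher in TRAP, 3 of the 10 where 26.2% of genes passed, 14.1% as higher and 12.1% as lower, and 0 of the 10 were lower. In WT, 0 of the 10 passed by edgeR, where 5.07% of genes did, 3.41% as higher and 1.67% as lower. There, 2 of the 10 had an unadjusted p under 0.05, RVE4 with 0.57 ± 0.16 (adjusted p = 0.0633) and RVE6 with -0.45 ± 0.18 (adjusted p = 0.171). DESeq2 called 1 of the 10, RVE4 (0.60, adjusted p = 0.04). RVE4 also passed by edgeR without msh1 TRAP 1 (0.61, adjusted p = 0.0172) or msh1 TRAP 2 (0.61, adjusted p = 0.0176).

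Per kilobase, the order of the mean levels placed RVE4, LNK1 and PRR7 in the top 3 of every group, although the libraries of PRR7 overlapped those of the next gene in msh1 TRAP (RVE6) and in WT TRAP (LNK2). In msh1 TRAP they averaged 18.3, 17.8 and 13.9 CPM per kilobase and their libraries overlapped in turn. In WT TRAP they averaged 30.1, 27.0 and 13.1, with no overlap between RVE4 and LNK1. In msh1 Total the order was RVE4 at 16.7, PRR7 at 15.5 and LNK1 at 11.1, and in WT Total LNK1 at 26.6, RVE4 at 20.3 and PRR7 at 15, without overlap in either. The lower end held RVE8 at 0.61 in msh1 TRAP, 1.5 in WT TRAP, 0.154 in msh1 Total and 1.32 in WT Total. In msh1 TRAP the last 4, LHY, CCA1, PRR9 and RVE8, each overlapped the next. CCA1 ranked 8 of the 10 in msh1 TRAP, 5 in WT TRAP, 7 in msh1 Total and 6 in WT Total. Summed over the 10 genes the level was 205.6 and 163.1 CPM for msh1 TRAP, 287.9 and 259.6 for WT TRAP, 144.6 and 156.4 for msh1 Total and 264.6 and 256.3 for WT Total.

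The other RVE and LNK genes also moved in both directions in TRAP. Of 6 listed, 5 passed the filter, and RVE3 was at 7 counts or fewer in every library. In TRAP 3 were lower and 2 higher in msh1, where 20.8% of all genes passed in each direction. In Total 3 were lower and 0 higher, where 3.07% of all genes were lower and 0.821% higher. RVE7, LNK3 and LNK4, the relatives of the MYB-like factors and of LNK1 and LNK2, were lower in both fractions. LNK3 stood at 10.7 and 7.07 CPM for msh1 TRAP, 20.3 and 21.7 for WT TRAP, 3.08 and 6.15 for msh1 Total and 21.4 and 24.5 for WT Total, a log2 fold change of -1.24 ± 0.27 in TRAP (adjusted p = 0.00321, edgeR) and -2.29 ± 0.28 in Total (adjusted p = 0.000579), with -2.89 in Total without msh1 Total 2. LNK4 was lower, at -1.13 ± 0.19 in TRAP (adjusted p = 0.000544) and -1.73 ± 0.19 in Total (adjusted p = 0.000324), and RVE7 at -1.12 ± 0.18 (adjusted p = 0.000494) and -1.29 ± 0.18 (adjusted p = 0.00125). RVE2 was higher in msh1 in TRAP, by 1.27 ± 0.27 (adjusted p = 0.00281), at 79.7 and 41.9 CPM in msh1 TRAP against 30.2 and 20.6 CPM in WT TRAP, and the call was lost with the length trend removed (0.73, adjusted p = 0.0872). RVE5 was higher by 0.48 ± 0.17 (adjusted p = 0.0365), a call lost on leaving out any library but msh1 TRAP 1 (adjusted p 0.0586 to 0.124, log2 fold change 0.45 to 0.53). It was also lost with DESeq2, no filter, the replicate block and a fit of the 4 libraries (adjusted p 0.0556 to 0.123). It shares 681 exon bases with AT4G01290 on the other strand, which holds more counts, and is uncertain.

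Of 12 afternoon and evening clock genes, 5 were higher and 4 lower in msh1 in TRAP, where 20.8% of all genes passed in each direction. Their median log2 fold change was 0.11, and 3 to 5 were higher and 2 to 5 lower on leaving out each library. In Total 0 passed by edgeR or DESeq2, 6 had an unadjusted p under 0.05, and the median was 0.24. Of the evening complex, which represses PRR9 and PRR7 at night, ELF4 was at 17.5 and 12.2 CPM for msh1 TRAP, 4.11 and 3.75 for WT TRAP, 4.85 and 6.47 for msh1 Total and 3.96 and 5.39 for WT Total. It was higher in TRAP by 1.92 ± 0.28 (adjusted p = 0.000272, edgeR), and LUX, its DNA-binding subunit, by 0.94 ± 0.15 (adjusted p = 0.000543), while ELF3, its scaffold, had a value of 0.07 ± 0.15 (adjusted p = 0.76). CHE, a TCP repressor of CCA1, was higher by 1.13 ± 0.20 (adjusted p = 0.000966), and BOA, a relative of LUX that shares 1679 exon bases with UGT76E1, by 1.05 ± 0.24 (adjusted p = 0.00429), a call lost without msh1 TRAP 2 (0.59, adjusted p = 0.0607) or WT TRAP 2 (0.90, adjusted p = 0.059). GI, which stabilises the photoreceptor ZTL, was lower, at -1.35 ± 0.24 (adjusted p = 0.000803). FKF1, an LOV-domain photoreceptor of the same family, was lower, at -0.89 ± 0.22 (adjusted p = 0.00662). PRR5, the afternoon repressor that follows PRR9 and PRR7, was lower, at -1.18 ± 0.31 (adjusted p = 0.00933), a call lost without WT TRAP 2 (-1.03, adjusted p = 0.0763), with -1.80 without msh1 TRAP 1. In Total, PRR5 stood at -1.20 ± 0.31 (adjusted p = 0.0512). LKP2 was lower, at -0.44 ± 0.16 (adjusted p = 0.0451), but not on leaving out any library except WT TRAP 1 or msh1 TRAP 2 (adjusted p 0.0743 to 0.292, log2 fold change -0.64 to -0.25 over all 8), and not in 6 of the 7 other settings (adjusted p 0.052 to 0.373).

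Of 8 morning outputs listed, 4 were lower and 0 higher in msh1 in Total, where 3.07% of all genes were lower and 0.821% higher. In TRAP 2 were lower and 1 higher, 3 of 8 where 41.6% of all genes passed. DESeq2 called 3 of the 8 in Total and 1 in TRAP. COL1, a CONSTANS-like protein, was at 5.99 and 8.01 CPM for msh1 TRAP, 11.2 and 10.7 for WT TRAP, 3.27 and 3.94 for msh1 Total and 13.3 and 12.4 for WT Total. Its log2 fold change was -1.83 ± 0.23 in Total (adjusted p = 0.000641, edgeR), which held with each library left out. In TRAP it was -0.64 ± 0.22 (adjusted p = 0.0365), lost on leaving out any library but msh1 TRAP 2 (adjusted p 0.0509 to 0.204, log2 fold change -0.92 to -0.38 over all 8). A non-coding RNA with a like count on the other strand covers all 1698 exon bases of COL1, and its counts are uncertain. COL2 was lower, at -1.50 ± 0.26 in Total (adjusted p = 0.00547) and -0.89 ± 0.27 in TRAP (adjusted p = 0.0178). Of its 2256 exon bases it shares 212 with AT3G02370 and 506 with AT3G02390 on the other strand, so part of its counts is uncertain. CDF3, a Dof repressor of CONSTANS, was lower, at -1.59 ± 0.38 (adjusted p = 0.0384), and PIF5, a bHLH growth factor, at -0.69 ± 0.15 (adjusted p = 0.0212), both in Total. CDF5, which shares 1154 of its exon bases with a non-coding RNA, was higher in TRAP by 0.56 ± 0.17 (adjusted p = 0.0214). On leaving out each library in turn, between 1 and 4 of the 8 were lower in Total. In TRAP 0 or 1 were lower and 0 or 1 higher. COL2 lost its Total call without msh1 Total 1 (-1.50), msh1 Total 2 (-1.49) or WT Total 1 (-1.37), and its TRAP call without msh1 TRAP 2 (-0.64) or WT TRAP 2 (-0.73). PIF5 lost its call without any of the 4 Total libraries (-0.73 to -0.65) and CDF3 without WT TRAP 1, WT TRAP 2, msh1 Total 1, WT Total 1 or WT Total 2 (-2.55 to -1.03 over all 8), and CDF3 also with DESeq2 (-1.60, adjusted p = 0.129) and with the replicate block (-1.61, adjusted p = 0.0574). CDF5 lost its call without msh1 TRAP 2 (0.41) or WT TRAP 2 (0.45), with DESeq2 (0.57, adjusted p = 0.0506) and in a fit of the 4 libraries (0.56, adjusted p = 0.0759). The TRAP call of COL2 was also lost with the length trend removed (-0.68, adjusted p = 0.0573), and that of COL1 with DESeq2 (-0.64, adjusted p = 0.0982) and in a fit of the 4 libraries (-0.64, adjusted p = 0.102).

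Of 6 evening outputs, 2 were higher and 0 lower in msh1 in each fraction, and these were JMJD5 and COR27. Of all genes 20.8% were higher in TRAP and 0.821% in Total. JMJD5, a jumonji-domain histone demethylase tied to the clock, was at 59.2 and 50.4 CPM for msh1 TRAP, 27.3 and 17.4 for WT TRAP, 69.1 and 60.5 for msh1 Total and 24.9 and 26.8 for WT Total. All 4 msh1 libraries lay above all 4 WT libraries. Its log2 fold change was 1.30 ± 0.20 in TRAP (adjusted p = 0.000374, edgeR) and 1.32 ± 0.19 in Total (adjusted p = 0.0019). COR27, a cold-regulated protein of the clock, was higher by 0.66 ± 0.16 in TRAP (adjusted p = 0.00573), lost without WT TRAP 2 (0.54, adjusted p = 0.0522) and with the length trend removed (0.40, adjusted p = 0.053). It was also higher by 0.64 ± 0.16 in Total (adjusted p = 0.0441), lost without any of the 4 Total libraries (adjusted p 0.0949 to 0.475, log2 fold change 0.53 to 0.75) and with the replicate block (0.63, adjusted p = 0.0679).

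**Figure D4:**
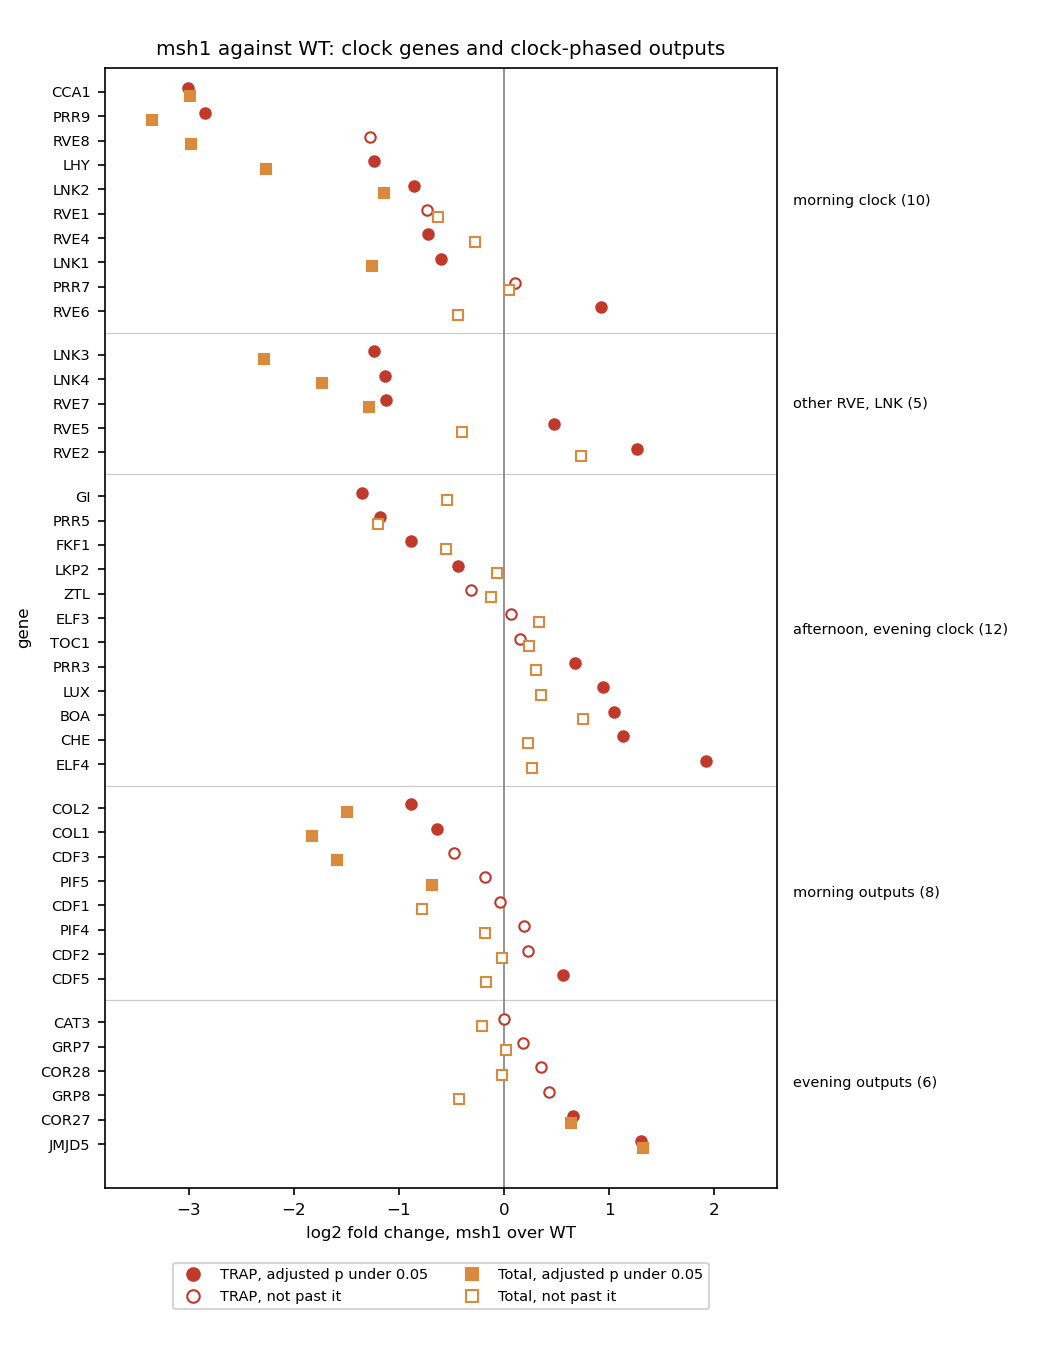
Log2 fold change of msh1 over WT (x axis) for each tested gene of 5 clock lists (y axis), circles for TRAP and squares for Total, filled where the edgeR adjusted p was under 0.05. Of the 10 morning clock genes 6 are filled below 0 in each fraction, while the 12 afternoon and evening clock genes spread to both sides in TRAP and are open in Total.

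Some marker lists of other tissues held genes that differed between genotypes, to be read against the 20.8% of all genes called in each direction in TRAP and the 3.07% called lower and 0.821% called higher in Total. Genes of the developing seed, an organ the labels do not name, were lower in msh1, 11 of 12 tested in each fraction, with a median log2 fold change of -4.46 in TRAP and -3.36 in Total. The summed level of the 15 listed seed genes was 58.2 and 42.0 CPM for msh1 TRAP, 937 and 2030 for WT TRAP, 115 and 292 for msh1 Total and 2520 and 2090 for WT Total. LEC2, a regulator of embryo development, and EM1, a late embryo protein, had 0 counts in all 4 msh1 libraries and 0 to 4 counts in the WT libraries. In the replicate pairs farthest apart in this sum, CCA1 and PRR9 were higher and LHY lower in msh1 Total 2, which had the higher sum of its pair. In the WT TRAP pair, CCA1 and LHY were higher and PRR9 lower in WT TRAP 2, which had the higher sum. Genes of stem secondary walls summed to 493 and 443 CPM for msh1 TRAP, 1220 and 1470 for WT TRAP, 538 and 693 for msh1 Total and 945 and 986 for WT Total, and 4 of 5 were lower in TRAP and 0 in Total, where 4 had an unadjusted p under 0.05 and DESeq2 called 3. Floral organ identity genes were lower in 3 of 4 cases in TRAP and 2 of 4 in Total, and summed to 60.6 and 64.3 CPM for msh1 TRAP, 77.2 and 113 for WT TRAP, 52.2 and 63.3 for msh1 Total and 90.7 and 90.6 for WT Total. In TRAP 3 of 4 epidermis genes were lower, at a sum of 344 and 292 CPM in msh1 TRAP against 610 and 773 CPM in WT TRAP, and 2 of 3 phloem genes, at 219 and 160 CPM in msh1 TRAP against 374 and 569 CPM in WT TRAP. Of 11 photosynthesis genes 3 were higher and 3 lower in TRAP, and of 3 xylem genes 0 passed there. In Total, 0 genes of these 4 lists passed by edgeR, and 1 photosynthesis gene had an unadjusted p under 0.05 and was called by DESeq2. The part of these tissues in the levels of the clock genes was not tested.

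**Figure D5:**
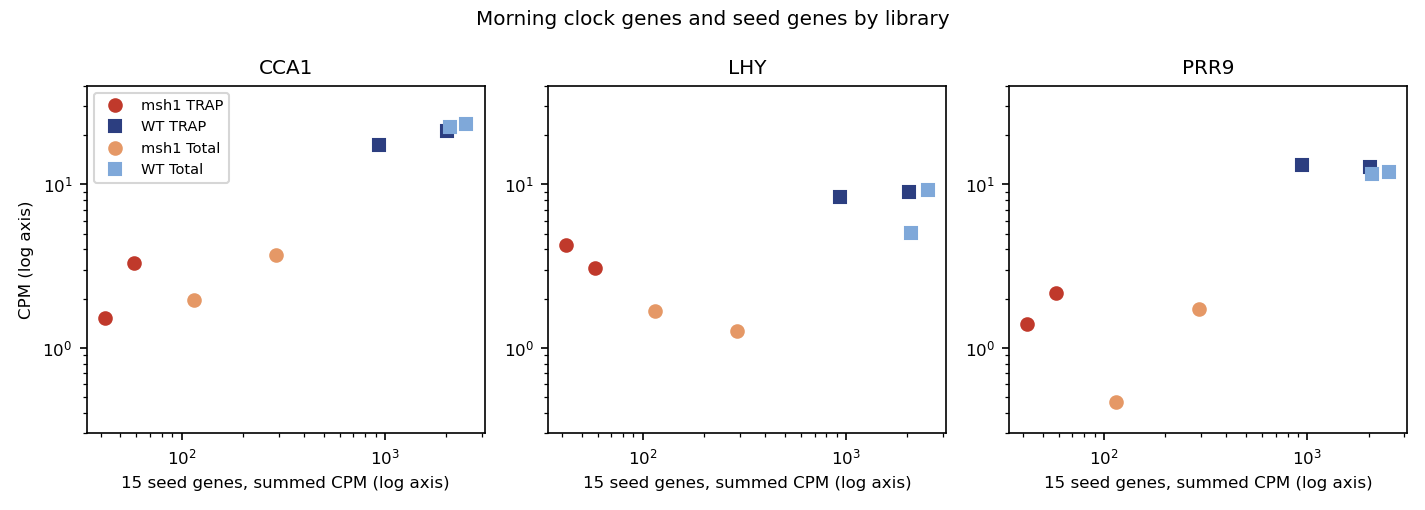
CCA1, LHY and PRR9 (y axes, CPM, log) against the summed level of 15 seed genes (x axes, CPM, log) in each of the 8 libraries, by group. The msh1 libraries lie at 292 CPM of seed genes or less and the WT libraries at 937 CPM or more, so genotype separates both axes.

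The genes with a pattern most like that of a morning clock gene were found by the root mean square distance of centred log2 CPM over the 8 libraries, among 7269 other genes with a symbol and at least 5 CPM on average. Nearest to CCA1 were RGP3, AO4 and OLEO4, each at a distance of 0.33, of which OLEO4 encodes an oleosin of oil bodies and AO4 an aldehyde oxidase. Among the 10 genes PRR9 was nearest to CCA1, at 0.45. Nearest to LHY were COL1 at 0.40 and GolS3 and LHCB2.3 at 0.41, with LNK2 the nearest of the 10 at 0.52. Nearest to PRR9 were CIPK20 at 0.51, NCED4 at 0.53 and OLEO4 at 0.57, all farther from it than CCA1. OLEO4 stood at 2.68 and 2.12 CPM for msh1 TRAP, 9.88 and 17.8 for WT TRAP, 1.87 and 3.71 for msh1 Total and 25.6 and 19.9 for WT Total. The distances describe these 8 libraries, and 4 of them carry each genotype.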

How the data were processed

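The data were mRNA sequencing counts of 8 libraries in 4 groups of 2. Per the labels' protocols, TruSeq v2 libraries were sequenced as paired reads of 100 bases. The authors deposited raw whole-number read counts per locus. The submitters' processing notes name TAIR10 and DESeq2; the aligner, the counter and its strand setting are not given in the sources used. At the end of every table, 5 lines name no gene and were left out; reads without a gene made up 38.5 to 41.68% of the listed counts, and reads without a unique alignment 12.35 to 18.95%.

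The test of counts was that of edgeR 4.0.16, in R 4.3.3 (filterByExpr, 21202 genes, TMM scaling, 1 quasi-likelihood fit of 4 groups, Benjamini-Hochberg adjustment over all genes, threshold 0.05), checked on simulated data. For msh1 TRAP against WT TRAP, 100 of 100 simulated 4-fold changes were recovered but only 50 of 100 of 2-fold. A gene not called may therefore still differ by 2-fold, and 2-fold is no upper bound. RVE8 in TRAP, for example, had a fitted value 2.43-fold lower in msh1 and was not called. The simulation covered this contrast alone. Alternatives were the size factors of DESeq2 1.42.0 and its Wald test, upper-quartile scaling, no filter, a replicate block, the removal of a trend over transcript length, a fit of the 4 libraries compared, and leaving out each library, where the lone sample of a group is assumed to vary like the others. Same-numbered libraries showed no shared deviation between groups, which does not exclude a pairing under other numbers. Replicates of a group differed by more than counting noise.

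Names and coordinates come from the TAIR10.1 RefSeq annotation by locus; 32548 of 32833 loci matched, and the 285 organelle loci held 0 counts. Promoters were read from the TAIR10.1 genome by gene start. Other clock genes and outputs were named where they passed a genotype contrast or the interaction, at most 8 a list by adjusted p. The 10 genes were listed by locus, and they and the other lists were chosen with earlier results of these data known.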

Additional observations from a re-analysis of the deposited data

Results flagged for a closer look

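For 4 genes of the clock lists the effect of msh1 in TRAP differed from that in Total by the interaction test of edgeR. RVE6, the 1 case among the 10 morning genes, had a difference of 1.36 ± 0.25 on the log2 scale (adjusted p = 0.00566), with msh1 above WT in TRAP and below it in Total. RVE5 gave 0.88 ± 0.24 (adjusted p = 0.0274) with the same signs, ELF4 1.64 ± 0.39 (adjusted p = 0.0166) and COL1 1.19 ± 0.32 (adjusted p = 0.0274). The interaction was called for 15.6% of all genes tested, so a few such calls in lists of this size are near the background. RVE6 passed with each library left out. ELF4 did not without WT TRAP 2 (1.57), msh1 Total 1 (1.46) or WT Total 2 (1.40), RVE5 without WT TRAP 2 or any of the 4 Total libraries (0.78 to 0.97 over all 8), nor COL1 without any library but msh1 TRAP 1 (0.90 to 1.41 over all 8). RVE5 and COL1 share exon bases with a gene on the other strand.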

How the results depend on the processing

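With 2 libraries a group, calls of small changes depend on single libraries. The counts of the 10 genes called moved past 1.5-fold under few settings: 4 in place of 7 for msh1 against WT in TRAP and 2 in place of 1 for the interaction, both with the length trend removed, and 1 in place of 0 for WT TRAP against WT Total with DESeq2 size factors, the DESeq2 Wald test, no filter, or a fit of the 4 libraries. On leaving out each library they ranged from 1 to 3 for msh1 TRAP against msh1 Total, 0 to 1 for WT TRAP against WT Total and 1 to 2 for the interaction; the cause was not tested.

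Over all genes, msh1 against WT in Total gave 1770 calls with no filter and 2708 in a fit of 4 libraries, against 824. For msh1 TRAP against msh1 Total a fit of 4 libraries gave 3548 against 5553. WT TRAP against WT Total gave 2011 with no filter and 1871 in a fit of 4 libraries, against 1076, and the interaction 1708 with the length trend removed, against 3312. Leaving out each library gave 5835 to 9517 calls for msh1 against WT in TRAP, 219 to 1650 in Total, 2218 to 7114 for fraction in msh1, 167 to 2310 for fraction in WT and 1009 to 5575 for the interaction.

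Signs turned only among values of the 10 genes that were not called. With the length trend removed these were PRR7 in msh1 TRAP against msh1 Total (0.11), LNK1 (-0.05) and LNK2 (-0.07) in WT TRAP against WT Total, and the interactions of CCA1 (0.27) and RVE1 (0.00). On leaving out each library PRR7 ranged from -0.30 to 0.50 for msh1 against WT in TRAP. In msh1 TRAP against msh1 Total the ranges were -0.83 to 0.29 for CCA1, -0.05 to 0.52 for RVE1 and -0.54 to 0.18 for PRR7. In WT TRAP against WT Total they were -0.09 to 0.78 for LHY, -0.28 to 0.60 for RVE8, -0.13 to 0.22 for LNK2 and -0.61 to 0.18 for PRR7. For the interaction they were -0.64 to 0.52 for CCA1, -0.48 to 0.20 for RVE1, -0.10 to 1.77 for PRR9 and -0.38 to 0.45 for PRR7.

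The G-box count fell to 5 of the 10 genes with the bases before the start alone. The deviations of same-numbered libraries correlated between groups at -0.24 to 0.08, so equal numbers showed no shared deviation. The values largest in size were those between TRAP and Total in WT (-0.24) and in msh1 (-0.2). Whether TRAP and Total libraries came from the same plants under other numbers was not tested. With the replicate block, 7 of the 10 genes were called for msh1 against WT in TRAP and 6 in Total, as without it. Among the other listed genes, the block ended the Total calls of CDF3 and COR27 and the TRAP calls of RVE5 and LKP2. In msh1, RVE8 and PRR9 rest on 22 counts or fewer a library in both fractions, and LHY on 16 and 18 in msh1 Total.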
